A study of Mus musculus with 18 samples.

Results

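The 10 genes described here encode the ribosome collision sensor Zfp598 and the factors that act with it or after it in no-go mRNA decay (NGD) and ribosome-associated quality control: Zfp598, Gigyf2, Eif4e2, Ascc3, Ascc2, N4bp2, Pelo, Hbs1l, Nemf and Ltn1. They were taken as a list of mouse gene symbols and matched to Ensembl identifiers. All 10 are among the 55414 genes of the deposited count table, and all 10 passed the filter on low counts that left 17901 genes for testing.

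When a ribosome stalls on an mRNA, the ribosome behind it runs into it. The E3 ubiquitin ligase Zfp598, known as Hel2 in yeast, recognizes the collided pair and ubiquitylates proteins of the small ribosomal subunit. Gigyf2 and the cap-binding protein Eif4e2 then block new initiation on that mRNA, the helicase Ascc3 and the ubiquitin-binding Ascc2 take the stalled ribosome apart, and an endonuclease related to N4bp2 can cut the mRNA. Pelo and the GTPase Hbs1l rescue ribosomes that have reached an mRNA end. Nemf binds the large subunit that still holds a nascent peptide, and the E3 ligase Ltn1 marks that peptide for degradation.

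The libraries were made from rRNA-depleted total RNA of N2A (Neuro-2a) cells, a mouse neuroblastoma line, harvested 72 h after transfection with a single siRNA. There were 6 siRNAs, named A and B for each of Scramble, Fmr1 and Zfp598, with 3 knockdown (KD) cultures and libraries per siRNA, 6 libraries per condition and 18 in all. The study compared Fmr1 KD and Zfp598 KD with Scramble KD to find transcripts that rise with loss of the fragile X protein FMRP and with loss of the NGD sensor, and the comparisons below ask how the mRNAs of the NGD factors themselves stood in the same libraries. All cells came from the same line, all received an siRNA with a lipid transfection reagent, no untransfected culture was analysed here, and KD leaves part of the target mRNA in place. Levels are given as CPM, the count of a gene relative to the TMM-scaled size of its library. Changes are log2 fold changes with their standard error (SE) from the quasi-likelihood test of edgeR. Its p-values were adjusted for all 17901 tested genes (Benjamini-Hochberg), and a gene is said to rise or fall where the adjusted p was under 0.05. The Fmr1 KD and Zfp598 KD comparisons used the same Scramble libraries.

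Total counts ranged from 7674724 to 15414590 per library. The feature with the most counts, which has no entry in the GENCODE M39 annotation, took 25.8% of the counts in the library Zfp598 A3 and 15.2% in Zfp598 A2, against 5.00 to 11.1% in the other 16. Zfp598 A3 was also the library of lowest total count. Of 11 markers of the neuronal and sympathoadrenal N2A line, all were in the table and Tubb3 reached at least 2780 counts in every library, while the neurofilament genes Nefl and Nefm had at most 6 and 4 counts. The summed level of 7 pluripotent stem cell markers was 38.2 CPM in Fmr1 B1 and 3.16 to 8.58 CPM in the other 17 libraries. Several results of the NGD factors that rest on Zfp598 A2, Zfp598 A3 or Fmr1 B1 are therefore given with and without them. Results for all other genes are given with all libraries only, so their dependence on these libraries is not shown. The part of the stem cell markers in any result was not tested. Fmr1 mRNA, the other siRNA target, was at 15.7, 22.0 and 16.8 CPM with Fmr1 siRNA A and 27.5, 25.1 and 27.0 CPM with Fmr1 siRNA B, against 51.1 to 68.7 CPM over the 6 Scramble libraries, so each Fmr1 library lay below every Scramble library. Set directly against each other, siRNA B over siRNA A, the Fmr1 siRNAs differed in Fmr1 mRNA by 0.55 on the log2 scale (SE 0.122, edgeR adjusted p = 0.00227). Their effects against the Scramble siRNA of the same letter differed by 0.30 (SE 0.166, edgeR adjusted p = 0.220).

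Zfp598 (ENSMUSG00000041130, chr17:24888631-24900993, plus strand, GRCm39) was the only factor of the 10 that passed the test in Zfp598 KD against Scramble KD. Its level was 119, 103 and 127 CPM with Scramble siRNA A and 112, 119 and 128 CPM with Scramble siRNA B. It was 32.2, 41.0 and 48.7 CPM with Zfp598 siRNA A and 41.0, 43.6 and 39.95 CPM with Zfp598 siRNA B. Every KD library lay far below every Scramble library, and the highest KD library was Zfp598 A3, which also had the largest share of counts in a single feature. Pooled over both siRNAs, Zfp598 mRNA fell by 1.53 on the log2 scale (SE 0.10, n = 6 per condition, edgeR adjusted p = 1.17e-08), that is by 65.3%. In bulk RNA, fewer cells with the mRNA and less mRNA per cell cannot be told apart, which holds for every level given here. In this comparison 1 of the 10 factors passed, the siRNA target itself, while 1.96% of all tested genes did.

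The domain that makes Zfp598 a ubiquitin ligase is a RING finger close to the N terminus, in which cysteines and a histidine hold zinc. Its coding stretch is shown because it encodes the ligase activity of the factor that KD lowers. It was read from exon 1 of transcript Zfp598-201 at chr17:24888810-24888929 on the plus strand of GRCm39, codons 27 to 66 of a protein of 905 residues, with the 8 zinc-binding codons in capitals.
Zfp598 RING stretch: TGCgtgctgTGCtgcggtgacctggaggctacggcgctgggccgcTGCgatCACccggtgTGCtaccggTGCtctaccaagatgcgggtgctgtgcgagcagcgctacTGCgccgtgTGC

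Zfp598 mRNA fell with each siRNA. Zfp598 siRNA A against Scramble siRNA A gave a log2 fold change of -1.54 (SE 0.123, edgeR adjusted p = 1.30e-07) and siRNA B against Scramble siRNA B gave -1.52 (SE 0.120, edgeR adjusted p = 3.08e-08). The difference of these effects, siRNA B minus siRNA A, was 0.02 with a 95% interval of -0.34 to 0.37 (edgeR adjusted p = 0.965). Without the libraries Zfp598 A2 and A3, which leaves a single library of siRNA A, that siRNA gave -1.87 and the difference was 0.36. The siRNAs set directly against each other, siRNA B over siRNA A, gave 0.05 (SE 0.125, edgeR adjusted p = 0.781) with all libraries. This value was 0.39 without Zfp598 A2 and A3.

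Fmr1 KD left Zfp598 mRNA closer to the Scramble level. It was 112, 100.1 and 121 CPM with Fmr1 siRNA A and 91.1, 96.4 and 105 CPM with Fmr1 siRNA B. The Fmr1 A libraries lay inside the Scramble A range apart from the lowest, and the Fmr1 B libraries lay below all Scramble B libraries. Neither siRNA passed, at -0.07 (SE 0.115, edgeR adjusted p = 0.735) for A and -0.29 (SE 0.115, edgeR adjusted p = 0.0744) for B, and the pooled change was -0.18 with a 95% interval of -0.38 to 0.03 (edgeR adjusted p = 0.303). The value for siRNA B passed without the filter on low counts (adjusted p = 0.0408) and without Zfp598 A2 and A3 (-0.29, adjusted p = 0.0164), while without Fmr1 B1 it was -0.24 (adjusted p = 0.245). Conversely, Fmr1 mRNA was at -0.02 in pooled Zfp598 KD (edgeR adjusted p = 0.962). It was at 0.29 with Zfp598 siRNA A (SE 0.115, edgeR adjusted p = 0.108) and fell by 0.33 with Zfp598 siRNA B (SE 0.114, edgeR adjusted p = 0.0360). The difference of these effects, siRNA B minus siRNA A, was -0.62 (SE 0.161, edgeR adjusted p = 0.00882).

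**Figure D1:**
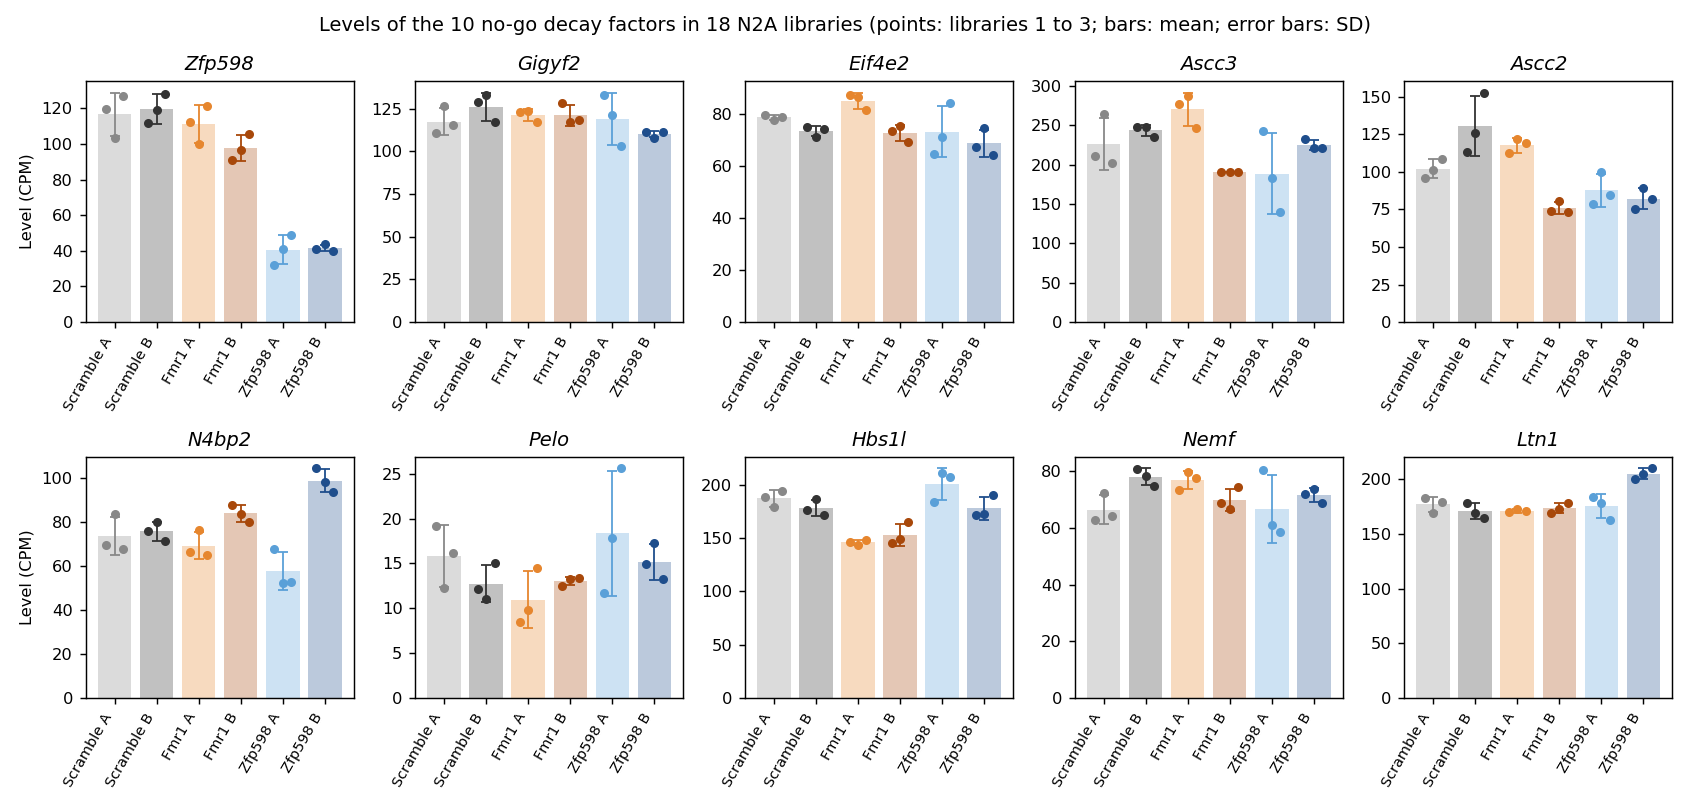
Level of each of the 10 factors in CPM (linear axis from 0) by siRNA group, with a point for each of the 3 libraries, bars for the mean and error bars for the SD. Zfp598 sits at 32.2 to 48.7 CPM in the 6 Zfp598 KD libraries and at 91.1 CPM or more elsewhere, Hbs1l is lowest in the 6 Fmr1 libraries, and N4bp2 lies lower with Zfp598 siRNA A and higher with siRNA B.

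The repressors of initiation did not pass the edgeR test in any comparison over all 18 libraries. Gigyf2 (ENSMUSG00000048000, chr1:87254718-87378534, plus strand), the scaffold that brings translational repressors to stalled mRNAs, ranged from 103 to 133 CPM over all 18 libraries. Its pooled change was -0.09 with a 95% interval of -0.25 to 0.07 in Zfp598 KD and -0.01 with an interval of -0.17 to 0.15 in Fmr1 KD. Eif4e2 (ENSMUSG00000026254, chr1:87141621-87168210, plus strand), its cap-binding partner, ranged from 64.4 to 87.3 CPM. Its pooled change was -0.10 (interval -0.28 to 0.08) in Zfp598 KD and 0.05 (interval -0.13 to 0.23) in Fmr1 KD. These intervals hold changes of either sign, with -0.28 as their lowest bound. Gigyf2 was below every Scramble B library in all 3 Zfp598 B libraries (-0.20, SE 0.0874, edgeR adjusted p = 0.106), and Eif4e2 was below every Fmr1 A library in all 3 Fmr1 B libraries (-0.23, SE 0.0875, edgeR adjusted p = 0.0625). The last value would pass with DESeq2 (adjusted p = 0.0360) and without Zfp598 A2 and A3 (adjusted p = 0.0175). For Gigyf2 the difference of the Zfp598 KD effect, siRNA B minus siRNA A, was -0.22 (edgeR adjusted p = 0.224) with all libraries. It was -0.35 without Zfp598 A2 and A3, which leaves a single library of Zfp598 siRNA A.

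Of the complex that takes stalled ribosomes apart, Ascc2 changed with both B siRNAs. Ascc2 (ENSMUSG00000020412, chr11:4587703-4636726, plus strand) was at 96.2, 101 and 109 CPM with Scramble siRNA A and at 113, 126 and 153 CPM with Scramble siRNA B. It was at 78.7, 99.6 and 84.7 CPM with Zfp598 siRNA A and at 75.4, 89.1 and 81.7 CPM with Zfp598 siRNA B. The Zfp598 B libraries lay below all 6 Scramble libraries, and of the Zfp598 A libraries only A2 was above the lowest Scramble library. With Fmr1 siRNA A it was at 112, 122 and 119 CPM, and with Fmr1 siRNA B at 74.1, 80.3 and 73.1 CPM. The Fmr1 A libraries were above all Scramble A libraries and the Fmr1 B libraries below all 6 Scramble libraries, so the Fmr1 siRNAs fell on opposite sides.

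Pooled over siRNAs, Ascc2 was at -0.46 on the log2 scale in Zfp598 KD (SE 0.141), which did not pass (edgeR adjusted p = 0.0905). DESeq2 placed it just inside the threshold (-0.45, adjusted p = 0.0487), and without Scramble B3 it was -0.36 (adjusted p = 0.201). In Fmr1 KD it was -0.27 (SE 0.140, edgeR adjusted p = 0.281). Within the siRNAs, Ascc2 fell with Zfp598 siRNA B (-0.67, SE 0.106, edgeR adjusted p = 8.87e-05) and with Fmr1 siRNA B (-0.78, SE 0.106, edgeR adjusted p = 1.83e-05), each against Scramble siRNA B. Both calls held when any of the 18 libraries was left out. Without Fmr1 B1 the Fmr1 siRNA B value was -0.76 (adjusted p = 0.000270).

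The siRNA A values were -0.22 (SE 0.107, edgeR adjusted p = 0.194) for Zfp598 and 0.21 (SE 0.105, edgeR adjusted p = 0.173) for Fmr1. The controls differed as well. Ascc2 was higher with Scramble siRNA B than with Scramble siRNA A (0.35, SE 0.105, edgeR adjusted p = 0.0188), the only 1 of the 10 factors to pass there, where 22.7% of all tested genes did. That call was lost without Scramble B3 (0.22, adjusted p = 0.156) and without Scramble A1. Against all 6 Scramble libraries, Ascc2 fell with Zfp598 siRNA A (-0.40, SE 0.0942, edgeR adjusted p = 0.00742), with Zfp598 siRNA B (-0.49, SE 0.0935, edgeR adjusted p = 0.000475) and with Fmr1 siRNA B (-0.61, SE 0.0937, edgeR adjusted p = 0.000101). With Fmr1 siRNA A it was 0.03 (SE 0.0907, edgeR adjusted p = 0.848).

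Ascc3 (ENSMUSG00000038774, chr10:50468729-50727581, plus strand), the helicase of the complex, spread widely within Zfp598 siRNA A. It was at 211, 264 and 202 CPM with Scramble siRNA A, at 248, 248 and 235 CPM with Scramble siRNA B, and at 232, 222 and 221 CPM with Zfp598 siRNA B. The Scramble B and Zfp598 B libraries lay close together, and the Scramble A libraries less so. With Zfp598 siRNA A it was at 243, 183 and 140.0 CPM, in the order in which the most counted feature took 5.67, 15.2 and 25.8% of the counts, and the part of that feature in the result was not tested. With Fmr1 siRNA A it was at 277, 287 and 246 CPM, and with Fmr1 siRNA B at 190.4, 191 and 190.8 CPM. All 3 Fmr1 B libraries were below every Scramble library, and Fmr1 A1 and A2 were above every Scramble library.

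Neither pooled comparison of Ascc3 passed, with -0.18 (SE 0.134, edgeR adjusted p = 0.508) in Zfp598 KD and -0.03 (SE 0.134, edgeR adjusted p = 0.938) in Fmr1 KD. Without Zfp598 A2 and A3 the Zfp598 KD value was -0.03 (adjusted p = 0.919). Fmr1 siRNA A gave 0.26 (SE 0.133, edgeR adjusted p = 0.178) and Fmr1 siRNA B gave -0.35 (SE 0.133, edgeR adjusted p = 0.0620). Without Zfp598 A2 and A3, both passed, at 0.25 (SE 0.0829, edgeR adjusted p = 0.0242) and -0.35 (SE 0.0832, edgeR adjusted p = 0.00288). These contrasts hold no Zfp598 library. All groups share 1 estimate of spread per gene, so an SE can move with libraries outside its contrast. Set directly against each other, Ascc3 was lower with Fmr1 siRNA B than with Fmr1 siRNA A (-0.50, SE 0.133, edgeR adjusted p = 0.00816), and this held when any library was left out.

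**Figure D2:**
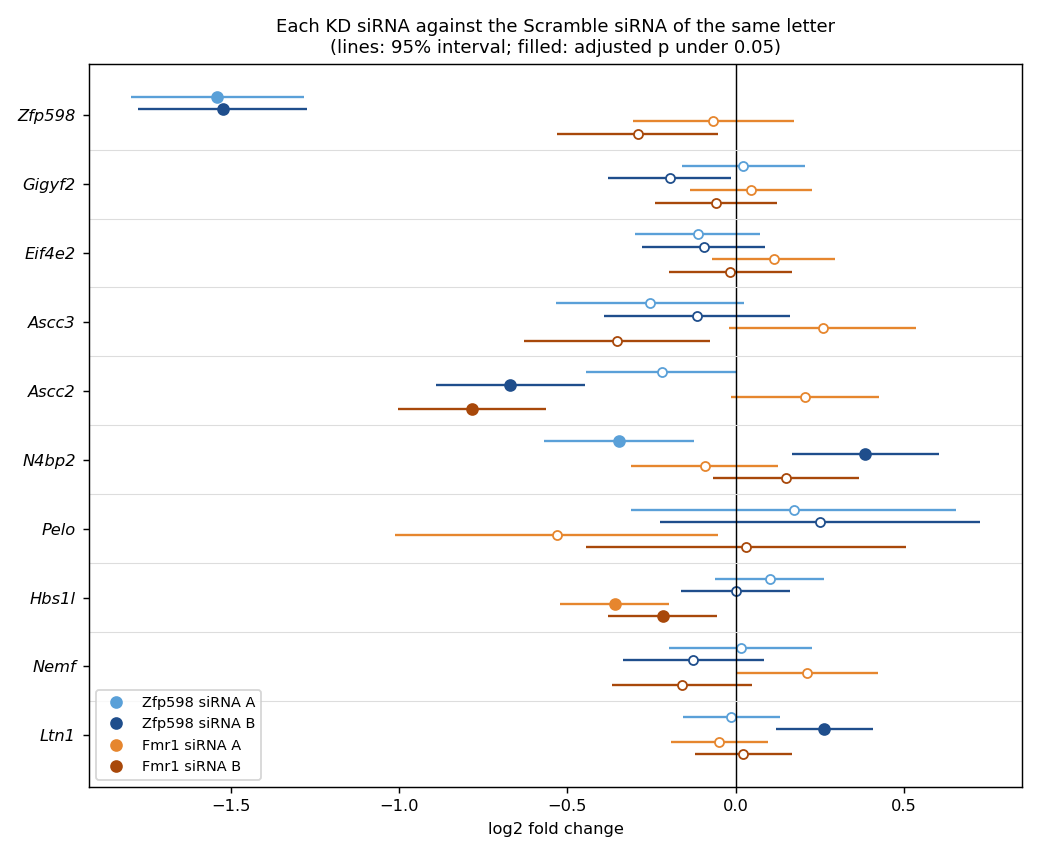
Log2 fold change of each factor with each KD siRNA against the Scramble siRNA of the same letter; lines are 95% intervals and filled points passed an edgeR adjusted p of 0.05. Zfp598 lies near -1.5 with both Zfp598 siRNAs, Hbs1l is below 0 with both Fmr1 siRNAs, Ascc2 falls with both B siRNAs, and N4bp2 lies on opposite sides of 0 with the Zfp598 siRNAs.

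The promoter of Ascc2 is shown because the gene moved with both B siRNAs. It holds CCGGAAG, the core motif of ETS factors, 5 bases after the start site, in capitals below. The sequence is that of RefSeq on GRCm38.p6, chr11:4637500-4637799, plus strand, from 250 bases before the start to 50 after it.
Ascc2 promoter: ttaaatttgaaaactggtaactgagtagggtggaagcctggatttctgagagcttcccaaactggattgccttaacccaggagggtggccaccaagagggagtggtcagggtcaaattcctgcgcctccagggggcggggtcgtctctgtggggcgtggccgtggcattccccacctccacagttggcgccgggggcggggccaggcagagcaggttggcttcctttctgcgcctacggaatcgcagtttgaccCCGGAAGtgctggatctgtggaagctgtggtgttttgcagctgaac

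N4bp2 (ENSMUSG00000037795, chr5:65920651-65987455, plus strand), whose relatives in yeast and worms cut mRNAs under collided ribosomes, went opposite ways with the Zfp598 siRNAs. It was at 69.7, 83.5 and 67.8 CPM with Scramble siRNA A and at 75.9, 79.9 and 71.1 CPM with Scramble siRNA B. With Zfp598 siRNA A it was at 67.8, 52.4 and 52.8 CPM, and with Zfp598 siRNA B at 104, 98.0 and 93.8 CPM. All 3 Zfp598 B libraries were above every Scramble library, and all 3 Zfp598 A libraries were below every Scramble A library, Zfp598 A1 only just. The most counted feature took 5.67, 15.2 and 25.8% of the counts in Zfp598 A1, A2 and A3. Its part in the N4bp2 result was not tested.

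With Zfp598 siRNA B, N4bp2 rose by 0.39 on the log2 scale (SE 0.104, edgeR adjusted p = 0.00920), a call that held when any library was left out. With Zfp598 siRNA A it fell by 0.35 (SE 0.107, edgeR adjusted p = 0.0394), but this call was lost without Scramble A2, without Zfp598 A2 or without Zfp598 A3. Without both Zfp598 A2 and A3, which leaves a single library of that siRNA, the value was -0.13. Pooled, these effects cancelled to 0.07 (SE 0.151, edgeR adjusted p = 0.853). With the Fmr1 siRNAs, N4bp2 was at 66.2, 76.2 and 65.1 CPM for A and 87.9, 83.7 and 79.9 CPM for B, and neither passed against its Scramble siRNA (-0.09 and 0.15, SE 0.105 and 0.104, edgeR adjusted p = 0.583 and 0.335).

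The promoter of N4bp2 is shown for its run of GC boxes (GGGCGG, here on the reverse strand as CCGCCC, in capitals), 4 in all at 97, 89, 11 and 7 bases before the start site. The last pair overlaps. It was taken from RefSeq on GRCm38.p6, chr5:65763271-65763570, plus strand, and 73.7% of its bases are G or C.
N4bp2 promoter: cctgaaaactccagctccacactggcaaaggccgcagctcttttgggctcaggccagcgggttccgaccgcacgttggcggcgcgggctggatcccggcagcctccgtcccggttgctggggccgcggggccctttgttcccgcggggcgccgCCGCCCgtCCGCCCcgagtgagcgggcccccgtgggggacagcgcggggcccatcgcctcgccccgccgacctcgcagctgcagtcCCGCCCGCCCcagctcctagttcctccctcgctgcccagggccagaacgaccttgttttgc

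Of the rescue pair, Hbs1l was lower with both Fmr1 siRNAs. Hbs1l (ENSMUSG00000019977, chr10:21171863-21247476, plus strand), the GTPase that delivers Pelo to the empty A site of a stalled ribosome, was at 189, 179 and 195 CPM with Scramble siRNA A and at 176, 187 and 172 CPM with Scramble siRNA B. It was at 146, 144 and 149 CPM with Fmr1 siRNA A and at 146, 149 and 165 CPM with Fmr1 siRNA B. With the Zfp598 siRNAs it was at 184, 211 and 208 CPM for A and 172, 172 and 191 CPM for B. All 6 Fmr1 libraries were below all 6 Scramble and all 6 Zfp598 libraries.

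In Fmr1 KD against Scramble KD, Hbs1l fell by 0.29 on the log2 scale, or by 18.1% (SE 0.0751, n = 6 per condition, edgeR adjusted p = 0.0244). It was the only 1 of the 10 factors to pass, in a comparison where 6.54% of all tested genes did. The call was lost in 6 of 18 fits with a library left out (without Scramble A3, Scramble B2, Fmr1 A1, Fmr1 A2, Fmr1 A3 or Fmr1 B1), with adjusted p up to 0.0599. It was also lost without the filter on low counts (-0.30, adjusted p = 0.0814) and with the counts summed per siRNA (-0.30, adjusted p = 0.999).

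Within the siRNAs, Hbs1l fell by 0.36 with Fmr1 siRNA A (SE 0.0776, edgeR adjusted p = 0.00181), a call that held when any library was left out, and by 0.22 with Fmr1 siRNA B (SE 0.0774, edgeR adjusted p = 0.0482). The latter passed in 4 of 18 fits with a library left out, and without Fmr1 B1 it was -0.17 (adjusted p = 0.191). Against all 6 Scramble libraries the values were -0.32 (SE 0.0679, edgeR adjusted p = 0.00111) and -0.25 (SE 0.0677, edgeR adjusted p = 0.0108). The effects of the Fmr1 siRNAs on Hbs1l differed by 0.14 with a 95% interval of -0.09 to 0.37 (edgeR adjusted p = 0.407). In Zfp598 KD, Hbs1l was at 0.05 with a 95% interval of -0.10 to 0.21 (edgeR adjusted p = 0.765).

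Fmr1 KD was also set directly against Zfp598 KD, a comparison added after the data were seen. Here 2 of the 10 factors passed, against 5.39% of all tested genes. Hbs1l was lower in Fmr1 KD (-0.34, SE 0.0752, edgeR adjusted p = 0.0108), with no overlap between the 6 and 6 libraries and a call that held when any library was left out. It was -0.27 (adjusted p = 0.0306) without Zfp598 A2 and A3. Zfp598, the siRNA target of the other group, was higher (1.35, SE 0.10, edgeR adjusted p = 1.17e-07).

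The promoter of Hbs1l is shown because it holds the core of the NRF1 motif, GCGCATGC, on both strands, starting 15 and 17 bases after the start site, so that the matches overlap in the stretch in capitals. It was taken from RefSeq on GRCm38.p6, chr10:21295729-21296028, plus strand.
Hbs1l promoter: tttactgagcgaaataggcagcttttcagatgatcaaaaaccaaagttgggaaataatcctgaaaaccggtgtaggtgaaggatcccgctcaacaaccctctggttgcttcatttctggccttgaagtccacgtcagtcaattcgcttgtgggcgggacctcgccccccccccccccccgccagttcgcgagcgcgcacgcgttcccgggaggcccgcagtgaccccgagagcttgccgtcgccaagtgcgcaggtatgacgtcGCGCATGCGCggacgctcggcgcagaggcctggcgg

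Pelo (ENSMUSG00000042275, chr13:115224543-115226777, minus strand), the factor that Hbs1l carries, was the least counted of the 10, with 125 to 235 counts per library, and its intervals are the widest. It ranged from 8.45 to 25.6 CPM, with the lowest value in Fmr1 A1 and the highest in Zfp598 A3. Its pooled change was 0.22 (95% interval -0.16 to 0.60, edgeR adjusted p = 0.568) in Zfp598 KD and -0.25 (interval -0.63 to 0.13, edgeR adjusted p = 0.455) in Fmr1 KD. With Fmr1 siRNA A it was -0.53 (SE 0.230, edgeR adjusted p = 0.105), which passed without the filter on low counts (adjusted p = 0.00912) and without Zfp598 A2 and A3 (adjusted p = 0.0280). Pelo was at 11.7, 17.8 and 25.6 CPM over Zfp598 A1, A2 and A3, whose shares of counts in the most counted feature were 5.67, 15.2 and 25.8%, and the part of that feature in the result was not tested. Of its exon bases, 56.4% also belong to other annotated genes, 39.6% to Gm49395 on the same strand, which had at most 21 counts, and 26.1% to the antisense Gm10734, which had at most 32. The strand setting of the counting is not given in the sources used here, so the reads of these genes cannot be told apart.

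Of the factors that act on the split large subunit, Ltn1 was higher with Zfp598 siRNA B. Ltn1 (ENSMUSG00000052299, chr16:87173539-87229501, minus strand), the E3 ligase of nascent chains, was at 163 to 184 CPM in the 15 libraries other than those of Zfp598 siRNA B. With that siRNA it was at 200.2, 205 and 210.1 CPM, above all others. Against Scramble siRNA B it rose by 0.26 on the log2 scale (SE 0.0690, edgeR adjusted p = 0.00738), or 20.0%, and this held when any library was left out but not without the filter on low counts (0.27, adjusted p = 0.0624). With Zfp598 siRNA A it was -0.01 (SE 0.0695, edgeR adjusted p = 0.930), and pooled it was 0.13 with a 95% interval of -0.02 to 0.28 (edgeR adjusted p = 0.370). In Fmr1 KD it was -0.01 with an interval of -0.17 to 0.14.

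Nemf (ENSMUSG00000020982, chr12:69357296-69403961, minus strand), which holds the split subunit for Ltn1, did not pass the edgeR test in any comparison over all 18 libraries. It ranged from 58.5 to 80.9 CPM, with a pooled change of -0.06 (95% interval -0.26 to 0.13) in Zfp598 KD and 0.02 (interval -0.17 to 0.22) in Fmr1 KD. Its Scramble B libraries (80.9, 78.5 and 74.9 CPM) were all above its Scramble A libraries (62.7, 72.3 and 64.2 CPM), at 0.23 (SE 0.101, edgeR adjusted p = 0.104). Without Zfp598 A2 and A3, Nemf passed there (0.23) and with Fmr1 siRNA A (0.21, against an edgeR adjusted p of 0.141 with all libraries). It also passed then in the difference of the Fmr1 KD effect, siRNA B minus siRNA A (-0.36, against an edgeR adjusted p of 0.0675 with all libraries). DESeq2 on all libraries also called this Fmr1 KD difference (-0.38, adjusted p = 0.0443). The same difference for Zfp598 KD had an edgeR adjusted p of 0.536 with all libraries. It was -0.38 without Zfp598 A2 and A3, which leaves a single library of Zfp598 siRNA A. Within Zfp598 siRNA A it went from 80.7 to 60.9 and 58.5 CPM over A1, A2 and A3. Klhdc2, which overlaps 23.3% of the Nemf exon bases on the other strand, went the other way in these libraries, at 123, 171 and 224 CPM.

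**Figure D3:**
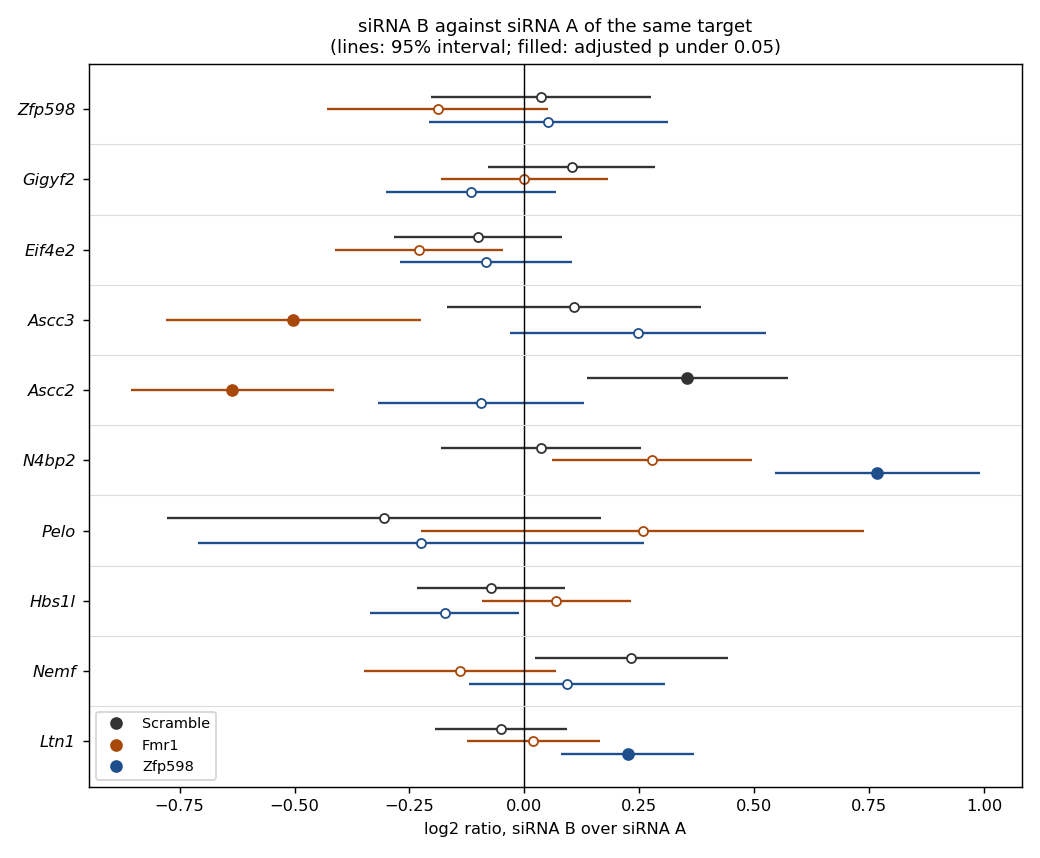
Log2 ratio of siRNA B over siRNA A of the same target for each factor; lines are 95% intervals and filled points passed an edgeR adjusted p of 0.05. N4bp2 and Ltn1 are higher with Zfp598 siRNA B than A, Ascc2 and Ascc3 are lower with Fmr1 siRNA B than A, and Ascc2 is higher with Scramble siRNA B than A.

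Counted by siRNA, 2 of the 10 factors passed with Zfp598 siRNA A (Zfp598 and N4bp2, both lower) against 11.9% of all tested genes, and 4 with Zfp598 siRNA B (Zfp598 and Ascc2 lower, N4bp2 and Ltn1 higher) against 26.8%. With Fmr1 siRNA A 1 passed (Hbs1l) against 23.6% of all genes, and with Fmr1 siRNA B 2 passed (Ascc2 and Hbs1l, both lower) against 22.7%. Against all 6 Scramble libraries, 3 passed with Zfp598 siRNA A (18.1% of all genes), 4 with Zfp598 siRNA B (29.9%), 1 with Fmr1 siRNA A (29.3%) and 2 with Fmr1 siRNA B (20.4%). Taken without the siRNA target, the counts were near or below the share of all genes. The median change of the 10 factors was -0.08 in Zfp598 KD and -0.02 in Fmr1 KD, beside 0.01 and 0.00 over all tested genes. The median size of change was 0.12 and 0.04 for the factors, beside 0.18 and 0.20 for all genes. These genes were not matched to the factors for count, and some had at most 24 counts in any library. The part of count level in this difference was not tested.

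The effect of Zfp598 KD differed between its siRNAs for 3 of the 10 factors, where 21.9% of all tested genes passed the same test. The difference, siRNA B minus siRNA A, was 0.73 for N4bp2 (SE 0.150, edgeR adjusted p = 0.00133), -0.45 for Ascc2 (SE 0.150, edgeR adjusted p = 0.0375) and 0.28 for Ltn1 (SE 0.0979, edgeR adjusted p = 0.0480). The N4bp2 difference held when any library was left out, and the Ascc2 and Ltn1 differences passed in 5 and 7 of 18 such fits. Leaving out both Zfp598 A2 and A3 leaves a single library of Zfp598 siRNA A. In that setting the differences were 0.53 for N4bp2, -0.27 for Ascc2 and 0.23 for Ltn1. Those of Gigyf2 and Nemf grew in size to the values given above. For Ascc2 the Zfp598 siRNAs set directly against each other, siRNA B over siRNA A, gave -0.09 (SE 0.108, edgeR adjusted p = 0.530), while the Scramble siRNAs differed by 0.35.

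The effect of Fmr1 KD differed between its siRNAs for 2 of the 10, where 21.8% of all tested genes passed. The difference was -0.99 for Ascc2 (SE 0.149, edgeR adjusted p = 5.92e-05), which held when any library was left out, and -0.61 for Ascc3 (SE 0.188, edgeR adjusted p = 0.0235), which passed in 13 of 18 such fits. Ascc3 lost the call without Scramble A1, A3 or B1 and without Fmr1 A1 or A2, with adjusted p up to 0.0719. Set directly against each other, with no Scramble library in the contrast, Zfp598 siRNA B and A differed in N4bp2 (0.77, SE 0.107, edgeR adjusted p = 2.11e-05) and Ltn1 (0.23, SE 0.0694, edgeR adjusted p = 0.0161), 2 of 10 against 35.3% of all genes. The Fmr1 siRNAs differed in Ascc2 (-0.64, SE 0.106, edgeR adjusted p = 0.000142) and Ascc3, 2 of 10 against 24.3%. Fmr1 mRNA itself was also higher with Fmr1 siRNA B than with A, by 0.55. The Ltn1 call was lost without Zfp598 A3, without Zfp598 B3 and without the filter on low counts (0.25, edgeR adjusted p = 0.0673). The Ltn1 value was 0.18 without both Zfp598 A2 and A3, which leaves a single library of Zfp598 siRNA A.

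**Figure D4:**
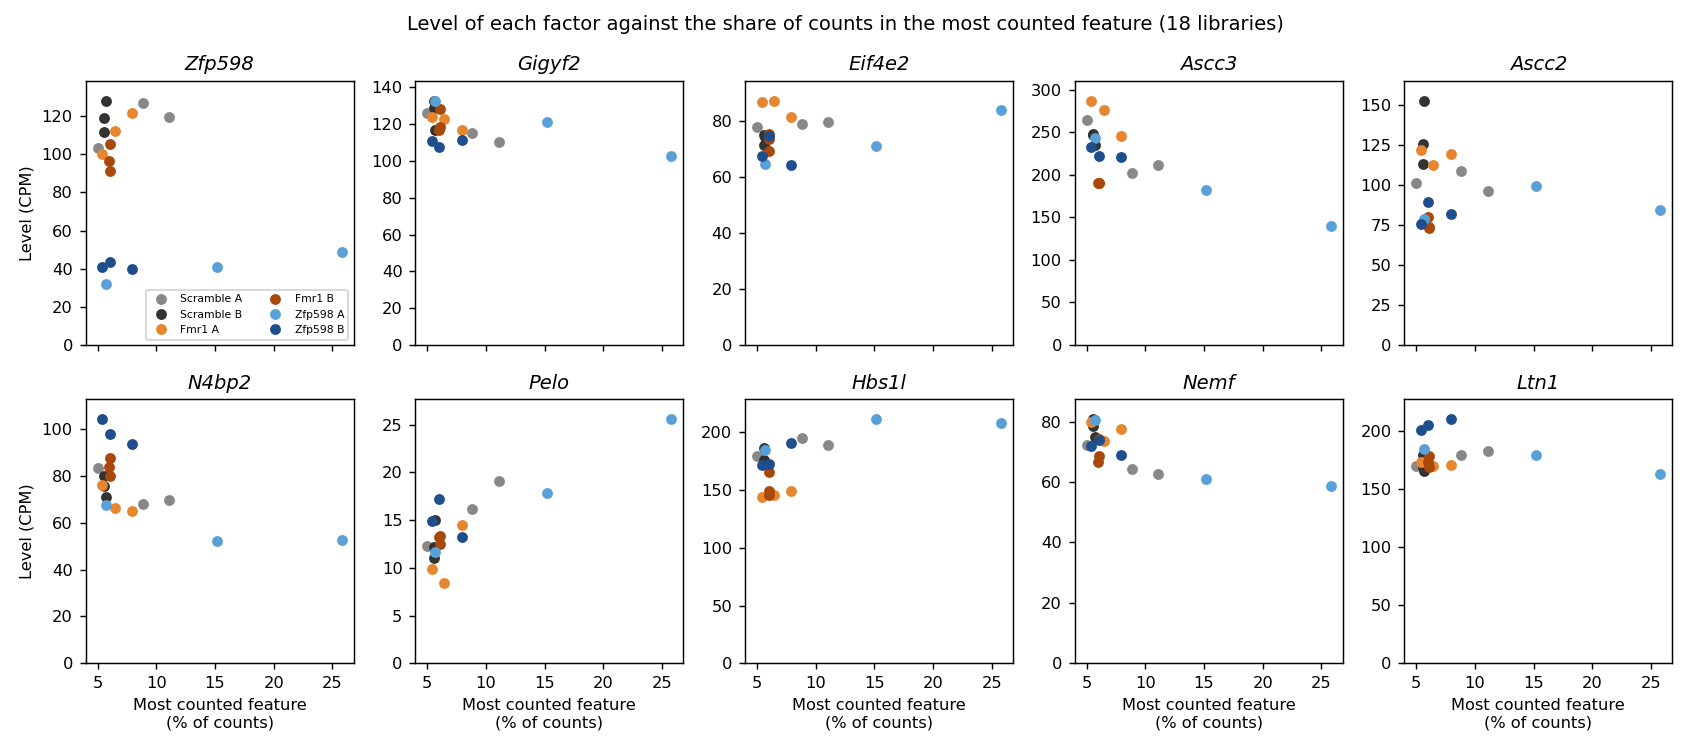
Level of each factor in CPM (vertical axis from 0) against the percent of a library's counts taken by the most counted feature, with a point per library coloured by siRNA. Zfp598 A2 and A3, at 15.2% and 25.8%, hold the lowest levels of Ascc3 (183 and 140 CPM), N4bp2 (52.4 and 52.8 CPM) and Nemf (60.9 and 58.5 CPM). Zfp598 A3 holds the highest Pelo level (25.6 CPM).

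Levels of different genes were compared per kilobase of the canonical transcript, over the 6 Scramble libraries. Eif4e2 stood highest at 48.6 ± 2.06 CPM per kb (SD, n = 6), clear of Zfp598 at 35.1 ± 2.82, Hbs1l at 33.8 ± 1.56 and Ascc3 at 30.2 ± 3.04, whose libraries overlapped. Ascc2 (23.4 ± 4.14), Ltn1 (22.5 ± 0.915) and Gigyf2 (21.2 ± 1.52) came next and overlapped one another. Ascc2 also overlapped Ascc3 and, only just, Zfp598, with its highest library at 30.8 and the lowest Zfp598 library at 30.7 CPM per kb. Nemf (15.2 ± 1.57) and N4bp2 (14.1 ± 1.17) overlapped each other and lay below these, and Pelo was lowest at 7.13 ± 1.52 CPM per kb. The order depends on the length used: per kilobase of all annotated exons, Zfp598 ranked 1 at 24.3 CPM per kb and Eif4e2 ranked 8 at 6.81. Other annotated genes share 56.4% of the exon bases of Pelo and 23.3% of those of Nemf. How reads on shared bases were counted is not given, so the places of Pelo and Nemf in the order are uncertain.

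The genes whose 6 group means, centred on their own mean, were closest to those of Zfp598 were Gm7807, Gm38560, 2900057B20Rik, Ptp4a1 and Snord118. The root mean square difference was 0.200, 0.214, 0.236, 0.261 and 0.267 on the log2 scale. All 5 had between 0 and 24 counts per library, so their levels are weakly measured, and the likeness is a description over 6 points that share libraries.

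Among 42 other genes of collision recognition, ribosome ubiquitylation, splitting, nascent chain degradation and mRNA cleavage or repression, 41 could be tested. In Zfp598 KD, 2 rose and 1 fell, where 1.96% of all tested genes passed. Usp21, a deubiquitylase of small subunit proteins, was at 26.9 to 33.9 CPM over the Scramble libraries and 37.2 to 49.6 CPM over the Zfp598 KD libraries, which did not overlap. It rose by 0.43 (SE 0.0951, edgeR adjusted p = 0.0228), and with siRNA A (0.55, adjusted p = 0.00374) and siRNA B (0.32, adjusted p = 0.0418) each. It also rose with Fmr1 siRNA A (0.35, edgeR adjusted p = 0.0267). Its mean was 37.5 CPM with Fmr1 siRNA A and 38.4 CPM with Fmr1 siRNA B. The Fmr1 libraries, at 33.4 to 41.7 CPM, overlapped those of Zfp598 KD, though Usp21 did not pass in pooled Fmr1 KD. Rnf10, an E3 ligase of small subunit proteins, rose by 0.33 (SE 0.0847, edgeR adjusted p = 0.0428), with 0.15 for siRNA A, which did not pass, and 0.53 for siRNA B. Its controls differed, with means of 180 CPM for Scramble siRNA A and 148 CPM for Scramble siRNA B. The means were 200 and 214 CPM for Zfp598 siRNA A and B. N4bp1, an endonuclease, fell by 0.33 (SE 0.0811, edgeR adjusted p = 0.0394), with -0.15 for siRNA A, which did not pass, and -0.50 for siRNA B. Its mean was 100 CPM for Scramble siRNA A and 117 CPM for Scramble siRNA B, beside 90.5 and 82.6 CPM for Zfp598 siRNA A and B. It also fell with Fmr1 siRNA B (-0.41, edgeR adjusted p = 0.000203). The median over the 41 genes was 0.12, beside 0.01 over all tested genes.

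In Fmr1 KD, 2 of the 41 fell and none rose, where 6.54% of all tested genes passed. Tcf25, which works with Ltn1 and Nemf on nascent chains, was at 352 to 448 CPM over the Scramble libraries and 280 to 318 CPM over the Fmr1 libraries, with no overlap. It fell by 0.47 (SE 0.10, edgeR adjusted p = 0.00794), and with siRNA A (-0.51, adjusted p = 0.000224) and siRNA B (-0.42, adjusted p = 0.00133) each. It also fell with Zfp598 siRNA B (-0.43, adjusted p = 0.00109). Gtpbp2, a GTPase linked to ribosome stalling, fell by 0.51 (SE 0.142, edgeR adjusted p = 0.0352), with -0.12 for siRNA A, which did not pass, and -0.94 for siRNA B. Gtpbp2 also fell with Zfp598 siRNA B (-0.86, edgeR adjusted p = 2.00e-07), and it was at -0.48 in Zfp598 KD (edgeR adjusted p = 0.0761). The median over the 41 genes was -0.03, beside 0.00 over all tested genes. Klhdc10, which recognizes the tails that Nemf adds, fell with both Fmr1 siRNAs (-0.23 and -0.32, edgeR adjusted p = 0.0291 and 0.00297) but not in the pooled comparison (-0.27, edgeR adjusted p = 0.169). It rose with Zfp598 siRNA B (0.65, edgeR adjusted p = 2.08e-06).

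By siRNA, 5 of the 41 rose and 1 fell with Zfp598 siRNA A, where 11.9% of all tested genes passed, and 10 rose and 6 fell with Zfp598 siRNA B (26.8%). With Fmr1 siRNA A 6 rose and 6 fell (23.6%), and with Fmr1 siRNA B 3 rose and 9 fell (22.7%). Between the Scramble siRNAs, 9 were higher and 7 lower with B (22.7%). The 16 genes that passed between the control siRNAs were as many as passed with Zfp598 siRNA B. In Fmr1 KD against Zfp598 KD, Klhdc10 (-0.68), Gtpbp1 (-0.40), Mkrn1 (-0.63) and Ankzf1 (-0.53) were lower in Fmr1 KD, with edgeR adjusted p = 0.00206, 0.0283, 0.0289 and 0.0425, where 5.39% of all tested genes passed. Means with Fmr1 siRNA A and B were 286 and 282 CPM for Klhdc10 and 74.1 and 78.9 CPM for Gtpbp1. With Zfp598 siRNA A and B they were 359 and 552 CPM for Klhdc10 and 98.9 and 103 CPM for Gtpbp1. Over the Scramble libraries the means were 343 CPM for Klhdc10 and 95.7 CPM for Gtpbp1. The Fmr1 siRNAs differed more for Mkrn1 (97.6 and 55.9 CPM, beside 119 CPM in Zfp598 KD) and Ankzf1 (10.5 and 15.8 CPM, beside 19.1 CPM). The Scramble means of these genes were 90.9 CPM for Mkrn1 and 16.7 CPM for Ankzf1.

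**Figure D5:**
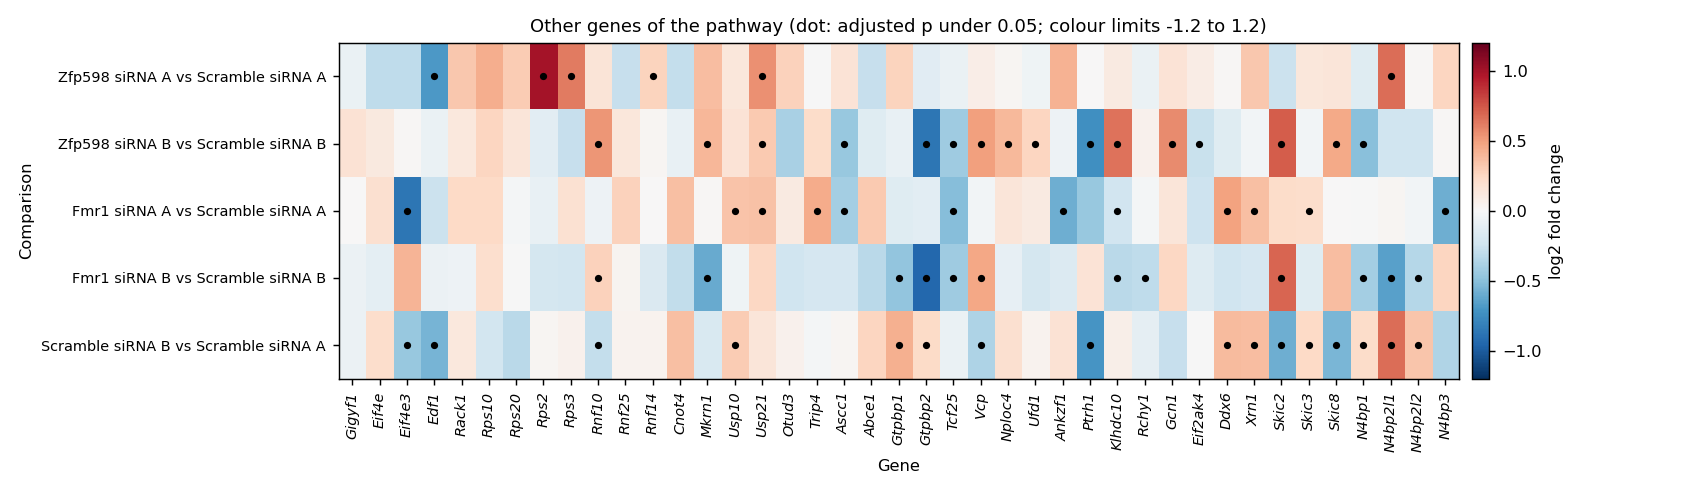
Log2 fold change of the 41 tested genes of the wider pathway (columns) in 4 comparisons of a KD siRNA with its Scramble siRNA and in Scramble siRNA B against A (rows); red is higher, blue lower, and a dot marks an edgeR adjusted p under 0.05. Usp21 has a dot with both Zfp598 siRNAs, and Tcf25 with both Fmr1 siRNAs; 16 genes have a dot in the row of the Scramble siRNAs.

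All 10 factors had a promoter sequence in the RefSeq table, which holds 27025 genes, and were searched on both strands for 7 motifs. The GC box GGGCGG was present in 7 of the 10 (Zfp598, Gigyf2, Eif4e2, Ascc3, Ascc2, N4bp2 and Hbs1l) and in 38.2% of all promoters in the table. CCAAT was present in 3 (Gigyf2, Nemf and Ltn1) and in 41.1% of all, and the ETS motif CCGGAAG in 2 (Eif4e2 and Ascc2) and in 9.93% of all. Gigyf2 alone held the E-box CACGTG (8.09% of all) and the YY1 motif AAGATGG (7.28%), and Hbs1l alone the NRF1 core (3.05%). The cyclic AMP response element TGACGTCA was in none of the 10 and in 2.03% of all. The part of any motif in the levels or changes was not tested.

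Several factors share sequence with other genes. Besides Pelo and Nemf, N4bp2 shares 10.2% of its exon bases with antisense genes, Hbs1l 9.30%, Gigyf2 6.65% and Ascc3 0.162%, while Zfp598, Eif4e2, Ascc2 and Ltn1 share none. The antisense N4bp2os was at 39 to 76 counts per library and 4930455C13Rik, antisense to Hbs1l, at 29 to 146, against 297 or more for N4bp2 and 1167 or more for Hbs1l. Neither passed in the pooled comparisons. Stretches of about 312 bases of the Hbs1l transcript are at least 98.1% identical to Gm9923, Gm44576 and Gm49914, and 490 bases of Nemf are 97.8% identical to Gm13791, so reads from these stretches could be split between the copies.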

How the data were processed

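Total RNA of N2A cells was depleted of rRNA and sequenced in 18 libraries (6 siRNAs, 3 knockdown cultures each, 72 h). The authors trimmed reads with TrimGalore, checked them with FastQC, ran STAR against GRCm39 and assigned reads to exons with featureCounts, and the deposited values are whole-number counts per gene, neither normalized nor pooled. Tool versions, annotation release, strand setting and treatment of multi-mapping reads are not given in the sources used here.

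From these counts, tests were run in R 4.3.3 with edgeR 4.0.16 (glmQLFit and glmQLFTest) on all 18 libraries with TMM scaling. filterByExpr (minimum count 10, minimum total 15) kept 17901 of 55414 genes. A model of 3 conditions gave the pooled comparisons, as in the study, which used DESeq2, and a model of 6 siRNA groups gave the rest. All tested genes entered the Benjamini-Hochberg adjustment, and a gene passed at an adjusted p under 0.05. Symbols, coordinates and lengths came from GENCODE M39, transcript copies from blastn 2.17.0 (at least 90% identity over 100 bases) and promoters from RefSeq on GRCm38.p6. No pair of libraries agreed within sampling noise. Alternatives were RLE scaling, DESeq2 1.42.0, no filter, the most counted feature left out, a replicate block, the siRNA letter as a term, counts summed per siRNA, a 2-fold criterion, all Scramble libraries as control, and each library left out. Leaving out Zfp598 A2 and A3 and the comparisons of KD with KD and of both siRNAs to the same target were added after the data were seen. Scripts were tested on simulated data. Genes named are the 10 factors, Fmr1, genes sharing exon bases with a factor, the 5 genes nearest in pattern to Zfp598, and genes of a pathway list that passed with both siRNAs of a target or in a pooled comparison. The members and the lists were chosen with earlier results of these data known. Precision is limited by 3 libraries per siRNA, and by 125 to 235 counts per library for Pelo.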

Additional observations from a re-analysis of the deposited data

Results flagged for a closer look

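The effect of KD on Ascc2, each siRNA against the Scramble siRNA of its letter, differed between siRNA B and siRNA A for both KD targets by a test of the difference itself. It was -0.45 (SE 0.150, edgeR adjusted p = 0.0375) for Zfp598 KD and -0.99 (SE 0.149, edgeR adjusted p = 5.92e-05) for Fmr1 KD on the log2 scale. Both contain the same Scramble siRNAs. Ascc2 was 0.35 higher with Scramble siRNA B than with Scramble siRNA A, which makes the siRNA B values more negative. Set directly against each other, siRNA B over siRNA A, the Zfp598 siRNAs gave -0.09 (edgeR adjusted p = 0.530) and the Fmr1 siRNAs -0.64 (edgeR adjusted p = 0.000142). N4bp2 differed by 0.73 (SE 0.150, edgeR adjusted p = 0.00133) between the Zfp598 siRNAs, with all 3 siRNA A libraries below and all 3 siRNA B libraries above their Scramble libraries. Ltn1 differed by 0.28 (SE 0.0979, edgeR adjusted p = 0.0480) between the Zfp598 siRNAs. Ascc3 differed by -0.61 (SE 0.188, edgeR adjusted p = 0.0235) between the Fmr1 siRNAs.

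Over 30 groups of 6 libraries (10 factors, 3 conditions), 1 held a library far from the others by Dixon's criterion, where chance gives about 1 in 20: Hbs1l in Fmr1 B3, at 165 CPM, against 144 to 149 CPM in the other 5 Fmr1 libraries. Without that library the fall of Hbs1l in Fmr1 KD was -0.32 (adjusted p = 0.0239).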

How the results depend on the processing

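No value of the 10 factors changed sign from a passing value in any alternative; over single factors, 2962 values kept their side of the threshold, 91 lost it and 47 gained it. Zfp598 in Zfp598 KD was -1.52 to -1.58 in the alternatives that used single libraries, -1.57 to -1.46 with a library left out, and -1.56 (adjusted p = 0.255) with counts summed per siRNA, which leaves 2 values a condition. With those sums 0 factors passed in Zfp598 KD, in Fmr1 KD or between the KDs. With a change of more than 2-fold also required, 1 factor (the target) passed with each Zfp598 siRNA and between the KDs, and 0 in Fmr1 KD, with either Fmr1 siRNA, between siRNA B and A of any target and in both differences of effect. DESeq2 gave 2 in Zfp598 KD, no filter gave 0 in Fmr1 KD and 2 with Fmr1 siRNA A, and RLE scaling or leaving out the most counted feature gave 1 with Fmr1 siRNA B. Without Zfp598 A2 and A3, 4 passed with Fmr1 siRNA A, 4 with Fmr1 siRNA B, 4 between the Fmr1 siRNAs and 2 between the Scramble siRNAs. Comparisons that use the single library then left of Zfp598 siRNA A are not counted. With a library left out, the counts ran from 1 to 1 in Zfp598 KD, 0 to 1 in Fmr1 KD, 2 to 2 between the KDs, 1 to 3 with Zfp598 siRNA A, 4 to 4 with Zfp598 siRNA B, 1 to 4 with either Fmr1 siRNA, 0 to 2 between the Scramble siRNAs, 1 to 5 between the Zfp598 siRNAs, 2 to 4 between the Fmr1 siRNAs, and 1 to 3 for both differences of effect. Same-numbered libraries deviated together in some pairs only (correlations of -0.597 to 0.531 over 18 pairs, 9 over 0.1), so the numbers were not taken as pairs. A replicate block gave 4 with Fmr1 siRNA B, where Ascc3 (-0.35, adjusted p = 0.0374) and Zfp598 (-0.29, adjusted p = 0.0394) were added, and no other count outside 1.5 times. It also added N4bp2 between the Fmr1 siRNAs (0.28, adjusted p = 0.0361) and lost Ltn1 in the difference of the Zfp598 effect (0.28, adjusted p = 0.0518). Depth limits Pelo most. In each model all groups shared 1 estimate of spread per gene. A library left out can therefore move the SE of contrasts that do not contain it. The cause of single changes was not tested.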
